A study of Mus musculus with 2 samples.

Results

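The transcription factor p53 switches on a set of genes when DNA is damaged, and 10 of these genes other than Cdkn1a (p21) were followed here in endothelial cells (ECs) of neonatal mouse heart and liver: Mdm2, Ccng1, Phlda3, Bax, Eda2r, Zmat3, Trp53inp1, Aen, Sesn2 and Gdf15. They were listed by name as p53 targets, at a time when earlier results of these data were known, and all 10 were among the 21951 genes counted in a single pooled 10x library. In unstressed cells the p53 protein is kept low by the ubiquitin ligase Mdm2. After a DNA break it is stabilised, binds a pair of short palindromic half-sites near its targets and raises genes that restrain p53 itself, halt the cell cycle, favour apoptosis or limit metabolic stress. The study scored p21 protein by immunostaining in ECs of postnatal retinas, as a marker of replicative stress or senescence. The comparison made here is of RNA in other tissues. It asks how other targets of the factor that drives Cdkn1a stood in the hashtagged heart and liver cells.

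The pups were C57BL/6 mice aged P6-P7. One dose of 40 mg/kg 4-hydroxytamoxifen had been given at P3, and tissues were taken 3 days later. Samples of 3 genotypes were taken in 2 tissues, which gave 6 groups marked by hashtag antibodies: control heart and liver, Cdh5-CreERT2 with iSuRe-Cre heart and liver, and Cdh5-CreERT2 with iSuRe-HadCre heart and liver. Cdh5-CreERT2 is a tamoxifen-inducible Cre driven by an endothelial promoter. iSuRe-Cre is a transgene on chromosome 17 that, once recombined, expresses membrane Tomato (MbTomato) and Cre permanently. iSuRe-HadCre lies in the Rosa26 locus, expresses Cre for a time and then removes it through a Flp recombinase step that also turns on MbTomato. The genotype of the control group and the number of pups behind each hashtag are not given in the sources used here. Cells were sorted as CD31+ MbTomato+ by the protocol, while the design statement speaks of sorting with or without Tomato signal. Notch1, which the study deleted in these cells, was at 138 CPM (UMIs of the gene in 1000000) in control heart against 12.6 and 23.2 in the iSuRe-Cre and iSuRe-HadCre hearts, and at 160 in control liver against 21.4 and 30.7, so both iSuRe groups carry low Notch1 as well as an iSuRe allele.

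Barcodes were kept with 2000 to 75000 gene UMIs (unique molecular identifiers, each 1 captured transcript), more than 500 genes, under 5% mitochondrial and under 5% haemoglobin UMIs and a Cdh5 value above 0.9, where that value is ln(1 + 10000 × the Cdh5 share of the UMIs of a cell). Of 7705 such barcodes, 1988 carried exactly 1 hashtag at its minimum, 131 carried more and 5586 carried none. The groups held 254 cells for control heart, 435 for iSuRe-Cre heart, 311 for iSuRe-HadCre heart, 54 for control liver, 858 for iSuRe-Cre liver and 76 for iSuRe-HadCre liver. Their summed depth ran from 624048 UMIs in control liver to 9341120 in iSuRe-Cre liver, and the median cell was deepest in iSuRe-Cre heart at 16379 UMIs against 7322 to 9100 in the other 5 groups. Each group is 1 hashtagged sample, so no test between animals was possible. Levels are CPM of a group with exact 95% Poisson intervals, and ratios carry exact 95% conditional intervals. Both cover counting error only.

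Several groups departed from their labels or from each other before any target gene was considered. Liver sinusoidal markers such as Stab2 summed to 3874 CPM in iSuRe-Cre liver but to 383 in control liver and 984 in iSuRe-HadCre liver. The liver sinusoidal-like cluster held 373 of 858 iSuRe-Cre liver cells, 5 of 76 iSuRe-HadCre liver cells and 0 of 54 control liver cells, which allows a share of up to 5.56% in the last. The iSuRe-Cre liver group also held 69 cells in a cluster led by neutrophil markers, 34 in one led by hepatocyte markers and 52 in one led by Ibsp and Ifitm5. Control liver had 4, 0 and 1 cells in these clusters, and iSuRe-HadCre liver had 0 in each. The liver groups thus hold different vessel types and other cell types. A difference in a target gene between them cannot be told apart from that. In heart, a cluster led by Car4 and Ablim3 held 131 of 254 control cells and 142 of 311 iSuRe-HadCre cells but 9 of 435 iSuRe-Cre cells. Tomato stood at 97.7 CPM in control hearts, 25.5 with iSuRe-Cre and 269 with iSuRe-HadCre, and the WPRE element of the reporters at 562, 63.5 and 1055 CPM, so the control heart group carried more reporter RNA than the iSuRe-Cre heart group. Free RNA of the library held Tomato at 30.3 and WPRE at 160 CPM, so neither was above that level in iSuRe-Cre heart. The liver groups had the same order, with Tomato at 78.5, 33.8 and 192 CPM and WPRE at 396, 105 and 1070 CPM, control first. Cre itself was near the same level in the 3 heart groups, at 29.0, 30.7 and 36.7 CPM, where UMIs of CreERT2 are counted too. The ERT2 sequence was at 45.9, 39.9 and 46.7 CPM in the same order, and free RNA held Cre and ERT2 at 7.59 CPM each. The control heart group thus held Cre and ERT2 RNA above the free RNA level. In control liver Cre was at 9.61 CPM (3.53 to 20.9) and ERT2 at 16.0 (7.68 to 29.5). Hepatocyte markers summed to 697 CPM in iSuRe-Cre heart against 126 and 93.8 in the other heart groups, and 89.9% of those UMIs came from 5 cells.

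Promoter sequence was examined because the members share a regulator. RefSeq promoters (GRCm38.p6, 250 bases before to 50 after a start) were at hand for 8 of the 10 genes and not for Zmat3 and Trp53inp1. The p53 consensus half-site, a motif of 10 bases that reads the same on both strands, was present in 4 of the 8, namely Mdm2, Ccng1, Bax and Aen, and in 8.36% of all 32851 promoters. The full site, a pair of half-sites up to 13 bases apart, was present in 0 of the 8 and in 0.0731% of all promoters. In Mdm2 the best known p53 response elements lie in the first intron, outside this window. The stretches that hold the half-site are printed 5′ to 3′ on the strand of the gene, with the half-site in capitals. Those of Mdm2 (chr10:117710919-117711008, minus strand), Ccng1 (chr11:40755447-40755536, minus strand) and Bax (chr7:45467059-45467148, minus strand) lie upstream of the annotated gene, with half-sites starting at positions -186, -185 and -201 from the start, and that of Aen (chr7:78895927-78895956, plus strand) lies in an exon annotated as untranslated, 10 bases after the first of its 2 listed starts.
Mdm2: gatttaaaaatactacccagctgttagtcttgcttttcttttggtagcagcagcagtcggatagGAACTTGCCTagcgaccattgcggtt
Ccng1: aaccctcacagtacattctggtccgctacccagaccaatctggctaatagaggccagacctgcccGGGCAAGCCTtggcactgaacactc
Bax: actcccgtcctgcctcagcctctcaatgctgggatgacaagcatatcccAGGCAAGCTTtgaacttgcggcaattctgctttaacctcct
Aen: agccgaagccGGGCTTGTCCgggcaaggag
A match in these windows describes the letters only. Phlda3, Eda2r, Sesn2 and Gdf15 had no half-site in the window, and their values in the heart are given below beside those of the 4 genes that had one.

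In heart, 9 of the 10 genes were at least 1.5-fold higher in iSuRe-Cre than in control cells and none was 1.5-fold lower. Of the 9733 genes with at least 200 UMIs over the 6 groups, 7.77% were as much higher and 9.13% as much lower. The median of the 10 log2 ratios was 0.82, against -0.06 over all those genes. Summed over the 10, control heart had 592 CPM (565 to 620), iSuRe-Cre heart 1036 (1014 to 1058) and iSuRe-HadCre heart 624 (596 to 652). The iSuRe-Cre sum was therefore 1.75 times the control sum (1.66 to 1.84) and the iSuRe-HadCre sum 1.05 times (0.988 to 1.12), an interval that includes 1. The liver sums were 548 CPM for control (491 to 609), 610 for iSuRe-Cre (595 to 626) and 574 for iSuRe-HadCre (519 to 634), with ratios to control of 1.11 (0.998 to 1.25) and 1.05 (0.904 to 1.21). The free RNA of the library, taken from barcodes of 10 to 100 UMIs, held the same genes at 381 CPM. Bax gave 40.1% to 52.0% of the summed UMIs, and without it the heart ratios were 1.73 for iSuRe-Cre and 1.20 for iSuRe-HadCre.

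**Figure D1:**
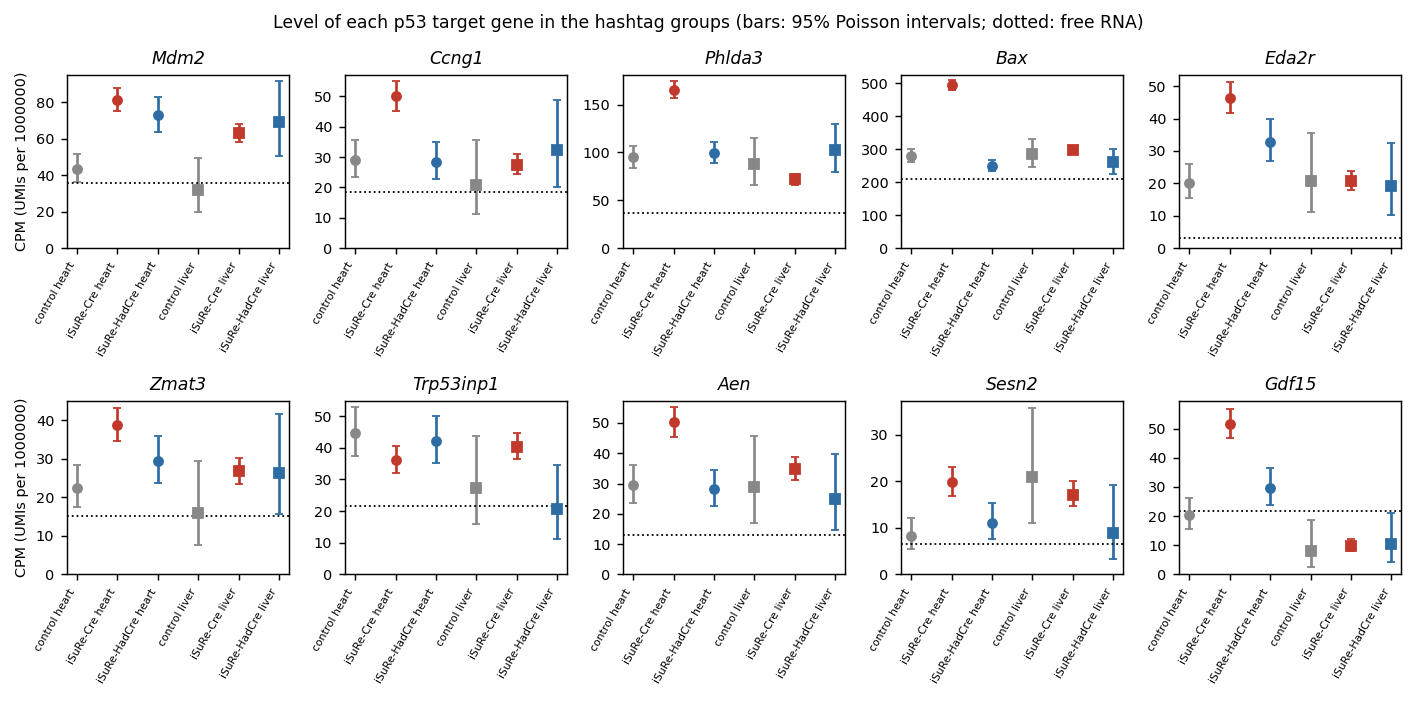
Level of each gene, in CPM, in the 6 groups. Points are group values, bars are 95% Poisson intervals, circles are heart and squares liver, and the dotted line is the free RNA of the library. For 9 of the 10 genes the iSuRe-Cre heart group is the highest of the 3 heart groups. Trp53inp1, at 36.1 there against 44.6 in control heart, is not.

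Mdm2 (chr10:117688875-117710758, minus strand), the ubiquitin ligase that marks p53 for degradation and is itself a p53 target, stood at 43.2 CPM in the control heart, with 81.4 for iSuRe-Cre and 72.8 for iSuRe-HadCre. Liver control cells had 32.0 CPM, iSuRe-Cre cells 62.9 and iSuRe-HadCre cells 68.8. Both iSuRe groups were above control in both tissues, and the intervals of iSuRe-Cre and iSuRe-HadCre overlapped in each tissue. The ratios to control were 1.88 (1.56 to 2.29) and 1.68 (1.35 to 2.11) in heart and 1.96 (1.26 to 3.24) and 2.15 (1.25 to 3.83) in liver. Mdm2 was the only one of the 10 genes whose interval lay above 1 in all 4 comparisons with control. The control liver value rests on 20 UMIs and lies below the free RNA level of 35.8 CPM. Within the largest cluster shared by the liver groups, 14 control, 61 iSuRe-Cre and 12 iSuRe-HadCre cells held 5, 34 and 3 Mdm2 UMIs. The Mdm2 ratios to control there were 0.970 (0.377 to 3.18) and 0.676 (0.105 to 3.48). Both intervals include the ratios of the whole groups, so that cluster cannot show whether the liver difference holds within it.

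Ccng1 (chr11:40748552-40755311, minus strand), which encodes cyclin G1 and acts with a phosphatase on Mdm2, had 29.0 CPM in control hearts, 49.98 with iSuRe-Cre and 28.4 with iSuRe-HadCre. Only the iSuRe-Cre group stood apart, with a ratio to control of 1.72 (1.36 to 2.19), while iSuRe-HadCre had 0.977 (0.718 to 1.33). The liver values were 20.8, 27.5 and 32.2 CPM (control, iSuRe-Cre and iSuRe-HadCre), and all 3 intervals overlapped.

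Bax (chr7:45461697-45466898, minus strand), the pore-forming protein of the mitochondrial apoptosis pathway, was counted at 279.9 CPM in control heart, at 496 with iSuRe-Cre and at 250.1 with iSuRe-HadCre. The iSuRe-Cre value was 1.77 times control (1.65 to 1.91), and the iSuRe-HadCre value was slightly under control at 0.894 (0.810 to 0.986). This small deficit turned to a ratio of 1.07 when each cell had equal weight. The 3 liver groups lay between 261 and 299 CPM with overlapping intervals.

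Aen (chr7:78895854-78911209, plus strand), an exonuclease that takes part in apoptosis, followed the same order in heart, with 29.4 CPM for control, 50.2 for iSuRe-Cre and 28.0 for iSuRe-HadCre. The iSuRe-Cre ratio to control was 1.71 (1.36 to 2.17) and the iSuRe-HadCre ratio 0.955 (0.702 to 1.30). The liver levels of 28.8, 34.7 and 24.9 CPM for control, iSuRe-Cre and iSuRe-HadCre had overlapping intervals.

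Eda2r (chrX:97333840-97377216, minus strand), a receptor of the tumour necrosis factor family, had 20.1 CPM in control heart cells, 46.4 in those with iSuRe-Cre and 32.9 in those with iSuRe-HadCre. Both iSuRe heart groups were above control, iSuRe-Cre by 2.30 (1.75 to 3.07) and iSuRe-HadCre by 1.63 (1.18 to 2.28), and the 3 liver groups lay between 19.0 and 20.8 CPM. Free RNA held Eda2r at 3.25 CPM, well under every group.

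Phlda3 (chr1:135766119-135769136, plus strand), an inhibitor of the Akt survival kinase, was at 94.7 CPM in the heart control, at 166 with iSuRe-Cre and at 99.6 with iSuRe-HadCre. That made iSuRe-Cre 1.75 times control (1.54 to 1.99) and iSuRe-HadCre 1.05 times (0.892 to 1.24). The liver order was otherwise, with iSuRe-Cre lowest at 71.7 CPM, control at 88.1 and iSuRe-HadCre at 102.

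Zmat3 (chr3:32334792-32366014, minus strand), an RNA-binding zinc finger protein, had heart levels of 22.4 CPM (control), 38.8 (iSuRe-Cre) and 29.3 (iSuRe-HadCre), and was at 16.0, 26.8 and 26.4 CPM in the liver groups in the same order. Its ratio was 1.73 (1.33 to 2.28) in iSuRe-Cre heart, and the intervals of the other 3 comparisons with control included 1.

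Trp53inp1 (chr4:11156431-11174379, plus strand), a nuclear protein that supports p53 activity and autophagy, was the exception in heart. Control cells had 44.6 CPM, iSuRe-Cre cells 36.1 and iSuRe-HadCre cells 42.2, and the iSuRe-Cre ratio of 0.811 (0.660 to 1.00) was below that of the other 9 genes. The liver levels, 27.2, 40.4 and 20.5 CPM, were highest with iSuRe-Cre.

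Sesn2 (chr4:132492032-132510501, minus strand), a sestrin that restrains the growth kinase mTORC1, and Gdf15 (chr8:70629393-70632456, minus strand), a secreted stress cytokine, are also targets of the integrated stress response. Sesn2 had 8.25 CPM in control heart cells, 19.8 with iSuRe-Cre and 10.96 with iSuRe-HadCre. Gdf15 was at 20.5, 51.7 and 29.6 CPM in the same order. Their iSuRe-Cre ratios of 2.39 (1.57 to 3.81) and 2.52 (1.93 to 3.35) were the largest of the 10 genes in heart. The liver levels were 20.8, 17.1 and 8.79 CPM for Sesn2 and 8.01, 9.85 and 10.2 CPM for Gdf15, again control first, with overlapping intervals. The free RNA level of Gdf15, 21.7 CPM, was near that of control heart and above the liver groups.

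**Figure D2:**
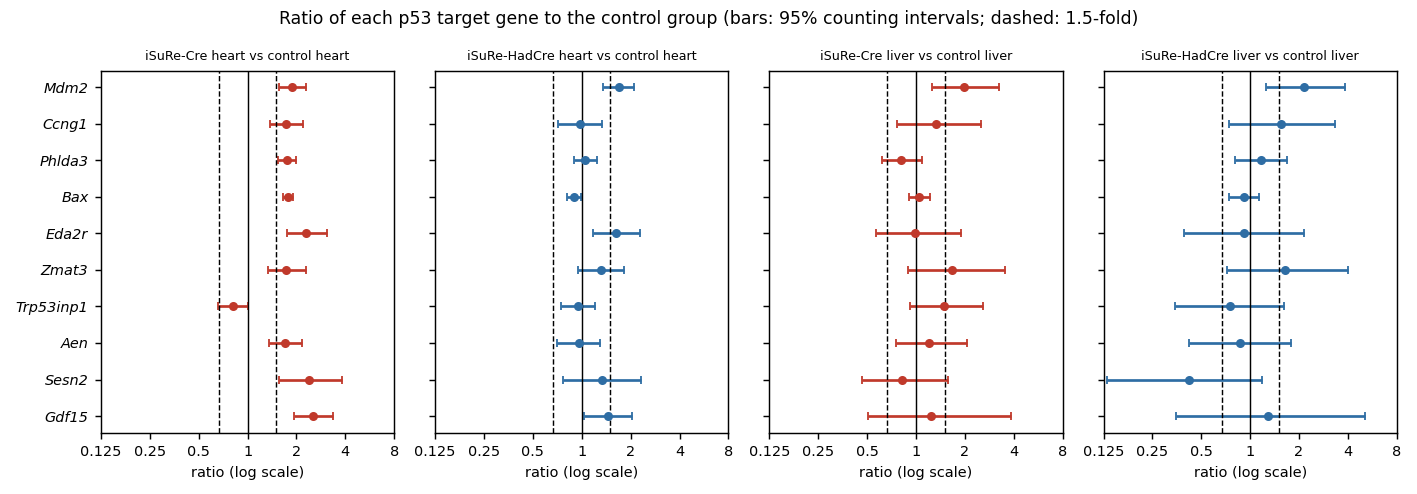
Ratio of each gene to the control group of the same tissue, on a log scale, with 95% counting intervals. The solid line is 1 and the dashed lines are 1.5-fold higher and lower. In iSuRe-Cre heart 9 of the 10 points lie to the right of the upper dashed line, and in the other 3 panels 2 or 3 do.

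Against control heart, 2 of the 10 genes were at least 1.5-fold higher in iSuRe-HadCre heart, Mdm2 and Eda2r, and none was as much lower. Over all genes 11.7% were as much higher and 2.64% as much lower, so this share was near the background. The Gdf15 ratio of 1.45 (1.04 to 2.03) had an interval above 1 but was under that fold. The median log2 ratio over all genes was 0.12 here, and that of the 10 genes was 0.23.

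In liver, 2 genes were at least 1.5-fold higher in iSuRe-Cre than in control, Mdm2 and Zmat3, where 12.8% of all genes were as much higher and 15.6% as much lower. In iSuRe-HadCre liver 3 genes were as much higher, Mdm2, Ccng1 and Zmat3, and Sesn2 was lower at 0.422 (0.131 to 1.19), beside 13.6% and 13.4% of all genes. Among these ratios the interval excluded 1 for Mdm2 alone. The interval stayed under 1.5 for Bax and Phlda3 in iSuRe-Cre liver, with upper ends of 1.23 and 1.09, and for Bax and Sesn2, with upper ends of 1.13 and 1.19, in iSuRe-HadCre liver. In all other comparisons of the 10 genes with control liver it reached past 1.5.

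When the iSuRe alleles were compared directly in heart, 6 genes were at least 1.5-fold lower in iSuRe-HadCre than in iSuRe-Cre and none was as much higher, where 4.67% of all genes were as much lower and 19.8% as much higher. The 6 were Bax at 0.504 (0.466 to 0.544), Sesn2 at 0.555, Aen at 0.558, Ccng1 at 0.567, Gdf15 at 0.574 and Phlda3 at 0.601. Eda2r at 0.709 and Zmat3 at 0.756 also had intervals under 1. Mdm2 at 0.895 (0.766 to 1.04) and Trp53inp1 at 1.17 (0.944 to 1.44) did not. The summed ratio was 0.602 (0.573 to 0.633), whereas the median gene of the whole table stood 0.20 higher on the log2 scale in iSuRe-HadCre heart. In liver the summed ratio was 0.940 (0.847 to 1.04), with none of the 10 genes at least 1.5-fold higher and Trp53inp1 and Sesn2 as much lower, beside 13.3% and 11.3% of all genes. These comparisons share the same iSuRe samples with the ones against control.

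**Figure D3:**
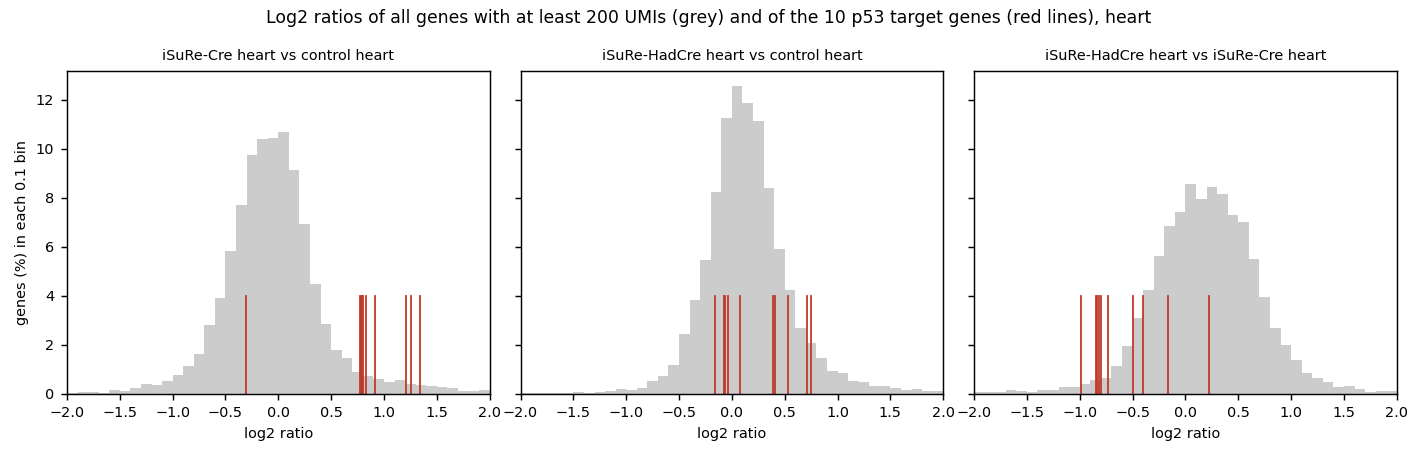
Log2 ratios in heart for all genes with at least 200 UMIs (grey, percent of genes in each bin) and for the 10 p53 target genes (red lines). Against control the red lines of iSuRe-Cre sit in the right tail except for Trp53inp1, those of iSuRe-HadCre spread from -0.16 to 0.75, and in the direct comparison 8 lie at -0.40 or lower.

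Cdkn1a (chr17:29090976-29100727, plus strand), which encodes the cell cycle inhibitor p21, had 161 CPM in the control heart, 499 with iSuRe-Cre and 244 with iSuRe-HadCre, with ratios to control of 3.09 (2.82 to 3.40) and 1.51 (1.35 to 1.70). Its ratio in iSuRe-Cre heart was above that of each of the 10 genes. The liver levels were 176, 228 and 192 CPM in the same order, with ratios of 1.29 (1.07 to 1.58) and 1.09 (0.838 to 1.42). Trp53 itself, the gene of p53, had heart ratios to control of 1.29 (1.13 to 1.48) for iSuRe-Cre and 0.860 (0.721 to 1.03) for iSuRe-HadCre. Mdm4, which binds and inhibits p53, had 0.829 (0.701 to 0.983) and 1.33 (1.11 to 1.61). Trp53 and Mdm4 thus differed from control in opposite directions in iSuRe-Cre heart, both by less than 1.5-fold.

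A wider list of 42 p53 pathway genes, drawn up without the 10 members, included Cdkn1a, Trp53 and Mdm4 and went in both directions. In iSuRe-Cre heart 11 of the 42 were at least 1.5-fold higher and 6 as much lower, with a median log2 ratio of 0.09. Of the 33 with at least 200 UMIs, 8 were higher and 4 lower, where 7.77% and 9.13% of all genes were. Beside Cdkn1a, the genes farthest from control were Perp, a membrane protein of epithelial adhesion and apoptosis, at 4.85 (2.26 to 12.4), Tap1, an antigen peptide transporter, at 3.34 (2.56 to 4.43), Zfp365 at 2.46 (1.17 to 5.99) and Pltp, a phospholipid transfer protein, at 0.191 (0.159 to 0.228). Tap1 is also an interferon-induced gene, and 36 of 435 iSuRe-Cre heart cells lay in a cluster led by Rgs5 with interferon-induced genes such as Cxcl10 and Rsad2, against 1 cell in each other heart group. The part of that cluster in the Tap1 level was not tested. Tap1 was also above control in liver, at 3.62 (1.74 to 9.06) with iSuRe-Cre and 4.44 (1.94 to 11.9) with iSuRe-HadCre, on 7 control UMIs. That cluster held 3 iSuRe-Cre and 0 iSuRe-HadCre liver cells. In iSuRe-HadCre heart 7 of the 42 were higher and 4 lower (4 and 3 of the 33, beside 11.7% and 2.64% of all genes), among them Sulf2 at 1.99 (1.43 to 2.80), Tap1 at 1.95, Pltp at 0.445 and the death receptor gene Tnfrsf10b at 0.497. In iSuRe-Cre liver 9 of the 42 were higher and 8 lower (4 and 8 of the 33, beside 12.8% and 15.6% of all genes). Among the 9, Perp, Ddb2, Pidd1, Slc19a2 and Lif had 0 or 1 UMI in control liver. In iSuRe-HadCre liver 6 and 10 were (3 and 9 of the 33, beside 13.6% and 13.4% of all genes).

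Integrated stress response and cell cycle genes were read in the same heart groups, and their part in the levels of the p53 targets was not tested. Of the 12 integrated stress response genes, 8 had at least 200 UMIs, and 2 of these 8 were at least 1.5-fold higher in each iSuRe heart group, beside 7.77% and 11.7% of all genes. With the 4 sparser genes included, 6 were as much higher with iSuRe-Cre and 5 with iSuRe-HadCre, and the interval lay above 1 for 4 and 3 of the 12. In iSuRe-Cre heart these included the asparagine synthetase gene Asns at 1.92 (1.33 to 2.84) and Atf5 at 1.58 (1.01 to 2.58), and in iSuRe-HadCre heart Phgdh at 1.51 and Cebpb at 1.60, which stood at 1.01 and 1.08 in iSuRe-Cre heart. The central factor of that response, Atf4, was at 1.11 (0.962 to 1.28) in iSuRe-Cre heart. All 10 cell cycle genes were at least 1.5-fold higher in iSuRe-Cre heart, with a median ratio of 2.54 and Ccnb2, a mitotic cyclin, highest at 3.12 (2.52 to 3.90). In iSuRe-HadCre heart 8 of the 10 were, with Cenpf at 2.68 and the proliferation marker Mki67 at 2.56. The 10 immediate early genes, which cell isolation itself can raise, went the other way in iSuRe-Cre heart. All 10 intervals lay below 1, with Zfp36 lowest at 0.551 (0.501 to 0.606). At least 1.5-fold lower were 2 of the 10, beside 9.13% of all genes. The share of all genes with an interval above or below 1 was not computed.

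Because the heart groups differed in their makeup, the summed level was also read within clusters that were built without the 10 genes. In cluster 1, led by Adm, Ccl2 and Apln, 36 control cells had 803 CPM, 161 iSuRe-Cre cells 1574 CPM and 40 iSuRe-HadCre cells 1054 CPM. This cluster had the highest summed level of the 16 and held 37.0% of iSuRe-Cre heart cells against 14.2% of control and 12.9% of iSuRe-HadCre heart cells. Within it the iSuRe-Cre sum was 1.96 times control (1.77 to 2.18), and the iSuRe-HadCre sum was 1.31 times control (1.13 to 1.53). With iSuRe-Cre 8 of the 10 genes were at least 1.5-fold higher there, and with iSuRe-HadCre 4 were as much higher and 3 as much lower. The share of all genes past that fold was not computed within the cluster. Mdm2 differed most in these cells, with iSuRe-Cre cells at 6.47 times control (3.48 to 13.6) and iSuRe-HadCre cells at 4.03 times (1.86 to 9.44).

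Of the other heart clusters, 7 and 11 had at least 20 cells in each group, and the same order held in cluster 7 but not in cluster 11. In cluster 7, led by Cxcl12 and Gja4, control, iSuRe-Cre and iSuRe-HadCre cells had sums of 543, 876 and 805 CPM, so that both iSuRe groups were above control, by 1.61 (1.33 to 1.96) and 1.48 (1.20 to 1.84). In cluster 11, led by Dcc and Hpse2, they were 429, 724 and 344 CPM, and iSuRe-HadCre lay below control at 0.804 (0.676 to 0.957). Cluster 8, the Car4 cluster, could be compared only for iSuRe-HadCre, whose sum of 726 CPM was 1.19 times (1.07 to 1.32) the control sum of 610 CPM. There Zmat3 at 2.05 (1.24 to 3.45), Eda2r at 1.86 (1.25 to 2.78) and Sesn2 at 2.58 (1.10 to 6.51) were above control. The intervals of all the other genes included 1, among them Bax at 1.06 (0.898 to 1.24), Mdm2 at 1.36 (0.976 to 1.89) and Gdf15 at 0.616 (0.271 to 1.32). Mdm2 ratios to control for iSuRe-Cre and iSuRe-HadCre were 3.78 (1.31 to 15.0) and 6.08 (2.10 to 24.0) in cluster 7. In cluster 11 they were 1.26 (0.761 to 2.18) and 1.47 (0.875 to 2.57). In the cycling cluster 6, led by Prc1 and Cenpf, 98 iSuRe-Cre cells were at 806 CPM and 24 iSuRe-HadCre cells at 497. The iSuRe-HadCre sum was thus 1.19 to 1.48 times control within clusters 1, 7 and 8 and 0.804 times within cluster 11, where over all heart cells it was 1.05 times.

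**Figure D4:**
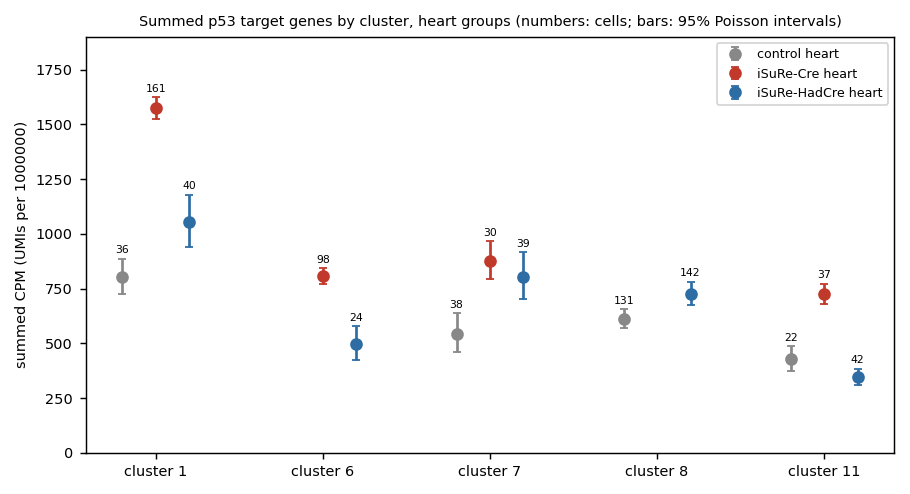
Summed CPM of the 10 genes in heart cells by cluster, for clusters with at least 20 cells in a group and at least 2 such groups. Points are group values, bars are 95% Poisson intervals and the numbers are cells. The iSuRe-Cre point is above the control point in clusters 1, 7 and 11, and the iSuRe-HadCre point is above control in clusters 1, 7 and 8 and below it in cluster 11.

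Depth differed between the groups, so the sum was read in 3 classes of cell depth as well. In heart cells of 2000 to 7500 UMIs control cells had 518 CPM, iSuRe-Cre cells 897 and iSuRe-HadCre cells 707. From 7500 to 15000 UMIs it was 662, 1137 and 780 CPM, and over 15000 UMIs it was 582, 1013 and 424 CPM. The iSuRe-Cre heart value was the highest in every class, and iSuRe-HadCre was above control in the 2 lower classes and below it in the highest. In cells under 15000 UMIs, a limit chosen after seeing the data, the iSuRe-HadCre ratio to control was 1.24 and that of iSuRe-Cre stayed within the interval given above. After every cell was thinned to 2000 UMIs, 33.3% of iSuRe-Cre heart cells had at least 3 UMIs of the 10 genes, against 13.1% of control and 17.3% of iSuRe-HadCre heart cells. Without thinning these shares were 92.6%, 66.9% and 69.5%, and they then follow depth as well. The thinned liver shares were 11.3% for control, 15.9% for iSuRe-Cre and 14.5% for iSuRe-HadCre.

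**Figure D5:**
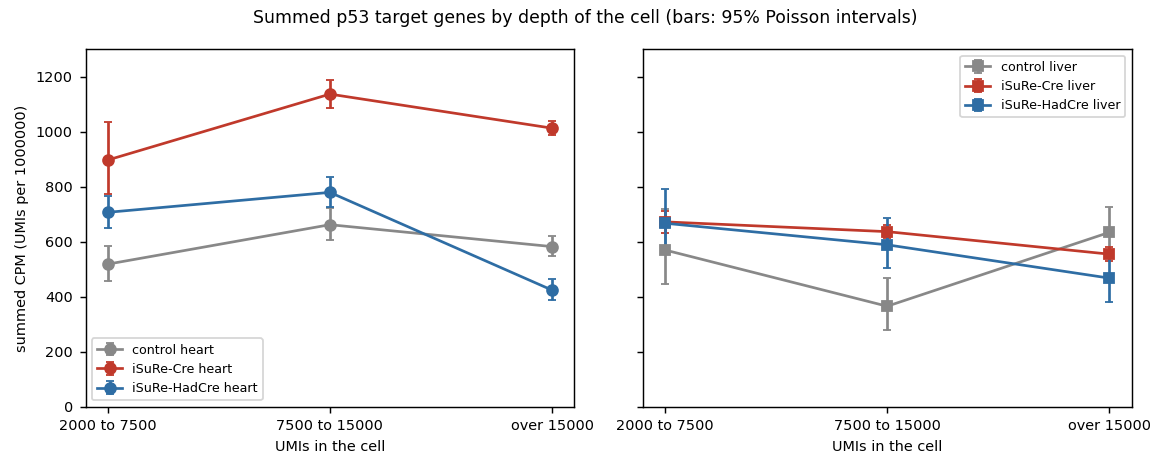
Summed CPM of the 10 genes by depth of the cell, for heart (left) and liver (right). Points are group values and bars are 95% Poisson intervals. The iSuRe-Cre heart line lies between 897 and 1137 and above the other heart lines throughout, whereas the liver lines cross.

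Within a group, cells with a Cre UMI were compared with cells that had none. The ratio of their summed levels was 1.02 (0.924 to 1.13) in control heart, 1.02 (0.977 to 1.06) with iSuRe-Cre and 1.06 (0.962 to 1.16) with iSuRe-HadCre. In iSuRe-Cre liver it was 1.11 (1.05 to 1.17), the only interval of the 6 groups that excluded 1 over cells of all depths, and it was 0.983 (0.863 to 1.12) in the shallower cells of that group and 1.18 (1.11 to 1.26) in the deeper ones. In iSuRe-Cre heart the shallower cells had 1.23 (1.14 to 1.33) and the deeper ones 0.959 (0.912 to 1.01). In control heart the shallower cells had 0.613 (0.459 to 0.806) and the deeper ones 1.13 (1.01 to 1.27), and in iSuRe-HadCre liver they had 2.04 (1.39 to 2.95), from 7 cells with a Cre UMI, and 0.824 (0.608 to 1.10). In iSuRe-HadCre heart (1.18 and 1.06) and in control liver (1.13 and 0.720) the intervals included 1 in both depth classes. In none of the 6 groups did the interval exclude 1 in the same direction in both. Cells that showed a Cre UMI were deeper in each group, with a median of 19076 against 14871 UMIs in iSuRe-Cre heart, and a cell without one may still express Cre. UMIs of CreERT2 count as Cre here too, so the split does not read Cre of the iSuRe alleles alone.

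The WPRE level gave another split. With the cells of a group ranked into 3 equal classes of low, middle and high WPRE share, the summed level was 500, 624 and 704 CPM in control heart and 510, 700 and 747 CPM in iSuRe-HadCre heart. In iSuRe-Cre heart it was 1128, 971 and 1030 CPM, with no such order, and its low class held no WPRE UMI at all. In heart the order was thus present in control as well as in iSuRe-HadCre. In control liver the sums ran the opposite way, at 721 (620 to 833), 469 and 377 CPM (289 to 484), with 18 cells in each class. The iSuRe-HadCre liver sums of 589, 479 and 648 CPM and the iSuRe-Cre liver sums of 612, 601 and 624 CPM showed no order. The low class of iSuRe-Cre liver also held no WPRE UMI. WPRE was at 21.6 and 166 CPM in the middle and high classes of iSuRe-Cre heart and at 40.6 and 323 CPM in those of iSuRe-Cre liver, beside 160 CPM in free RNA. The split of the iSuRe-Cre groups thus rests largely on WPRE counts near or below the free RNA level. Median depth ran the other way from WPRE in control and iSuRe-HadCre heart, from 11280 to 7315 UMIs in control heart and from 8635 to 6879 in iSuRe-HadCre heart.

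Across the 6 groups genes whose level was among the most like the summed level, by Pearson's r of log2(CPM + 1), were Daxx at 0.987, Ccnd3 at 0.977, Nmi at 0.976 and Marchf5 at 0.974, and Cdkn1a had 0.960. Daxx had heart levels of 26.1, 62.6 and 28.7 CPM, control first. These values describe 6 points from 1 library, in which the iSuRe-Cre heart group stands far from the others.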

How the data were processed

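Cells of 6 hashtagged groups were run as 1 pooled 10x library, with a hashtag library beside it. The authors deposited raw UMI counts per gene, transgene and hashtag for 2755147 barcodes, made with Cell Ranger 7.1.0 on GRCm38 with Ensembl 98 genes and added transgene sequences, and neither normalized nor filtered. From these counts, barcodes were selected as described above, with a hashtag minimum of 25 UMIs (140 for the iSuRe-Cre liver tag, whose counts were high throughout) and every other hashtag below its minimum. Barcodes with more than 1 hashtag were left out as doublets, and no other doublet caller was run, so doublets within a group remain. The study's WPRE criterion was not applied in the main selection, since it is an outcome of the genotype, and was tried as an alternative. It kept 145 of 435 iSuRe-Cre and 292 of 311 iSuRe-HadCre heart cells, and 379 of 858 and 66 of 76 liver cells.

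The UMIs of a gene were added up over the cells of a group and scaled to 1000000 UMIs of that group. With 1 sample per group no model was fitted. Intervals are exact Poisson (levels) and exact conditional Clopper-Pearson (ratios) at 95%, computed with scipy 1.17.1 and checked on simulated counts. A gene counted as higher or lower at a ratio of 1.5 or more in that direction. Clusters were made with scanpy 1.11.5 (2000 variable genes, 30 components, 15 neighbours, Leiden resolution 0.6) without the 10 genes, Cdkn1a, Notch1, transgenes, mitochondrial and haemoglobin genes, and are named sinusoidal-like only from listed markers. Gene loci are those of GENCODE vM21 on GRCm38. In text, genes of other lists were named where they were at least 1.5-fold different with an interval excluding 1 and 50 or more UMIs, up to 4 a list by size. Atf4 was named after its value was seen. Genes most like the sum were the 5 with the highest r, of which 1 is not reported here. The members and lists were chosen with earlier results of these data known. The hashtag labels carry no replicate number.

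The alternatives were other hashtag minimums (50 or 10 UMIs), no Cdh5 criterion, WPRE above 0.5, mitochondrial share under 10%, fewer than 6000 genes, scaling by the median ratio of all genes, equal weight for each cell, subtraction of free RNA, the largest shared cluster, a fold of 2, the sum without Bax, and, added after seeing the data, cells under 15000 UMIs and cells with a hepatocyte marker share under 0.1%.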

Additional observations from a re-analysis of the deposited data

Results flagged for a closer look

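Some of the 10 genes stood on opposite sides of control in heart and liver, with an interval of the heart ratio over the liver ratio that excluded 1. These intervals use the normal approximation to the log ratio and cover counting error, and with 1 sample per group the difference between tissues was not tested. For iSuRe-Cre, Phlda3 was at 1.75 times control in heart and 0.814 in liver, a heart ratio 2.15 times the liver ratio (1.59 to 2.91). Eda2r was at 2.30 and 0.992, which gave 2.32 (1.25 to 4.33), and Sesn2 at 2.39 and 0.822, which gave 2.91 (1.44 to 5.89). Trp53inp1 had the opposite order, at 0.811 in heart and 1.48 in liver, which gave 0.547 (0.323 to 0.927). For iSuRe-HadCre, Sesn2 was at 1.33 in heart and 0.422 in liver, which gave 3.15 (1.05 to 9.43). The liver values of several of these genes moved across 1 with the selection of cells. For iSuRe-Cre, Phlda3 in liver went to 1.78 (0.654 to 6.80) in the largest shared cluster and to 1.48 (0.959 to 2.42) at a hashtag minimum of 50 UMIs. At that minimum Eda2r in liver went to 11.3 (2.01 to 450) on 1 control UMI, and Sesn2 in liver went to 1.04 (0.606 to 1.95) without the Cdh5 criterion. Trp53inp1 in iSuRe-Cre heart went to 1.09 (0.703 to 1.76) in the shared cluster. The liver groups differ in their share of sinusoidal and other cells, so the tissues and the cell types compared cannot be told apart.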

How the results depend on the processing

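No paired analysis was possible because each group is 1 hashtagged sample. The iSuRe-Cre heart sum stayed between 1.72 and 1.96 times control over 13 alternatives, and at least 8 of the 10 genes stayed 1.5-fold higher except at a fold of 2, where 3 did. The iSuRe-HadCre heart sum ran from 0.968 to 1.31 times control, on both sides of 1, and the liver sums rest on 54 and 76 cells at their smallest. The cause of the moves below was not tested. The share of all genes past the fold was computed for the main selection only. Counts of genes past the fold under the alternatives therefore have no background of their own.

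For iSuRe-Cre heart against control, the sum ratio of 1.75 became 1.87 with equal weight for each cell, 1.92 with free RNA subtracted and 1.96 in the largest shared cluster. The free RNA share of that group was put at 14.7% from hepatocyte genes, of which 5 cells held most, against 2.67% in control heart. For iSuRe-HadCre heart against control, the ratio of 1.05 became 0.972 at a hashtag minimum of 50 UMIs, 1.15 with fewer than 6000 genes, 0.968 under median-of-ratios scaling, 1.18 with equal weight, 1.31 in the shared cluster, 1.24 in cells under 15000 UMIs and 1.20 without Bax. Its 2 genes past the fold became 5 at a hashtag minimum of 10 UMIs, 1 without the Cdh5 criterion, 4 with fewer than 6000 genes, 1 under median-of-ratios scaling, 4 in the shared cluster, 4 in cells under 15000 UMIs and 0 at a fold of 2. For the ratio of iSuRe-HadCre to iSuRe-Cre heart, 0.602 became 0.542 and 0.639 at hashtag minimums of 50 and 10 UMIs, 0.530 under median-of-ratios scaling, 0.633 with equal weight, 0.547 with free RNA subtracted, 0.670 in the shared cluster, 0.673 in cells under 15000 UMIs and 0.692 without Bax.

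For iSuRe-Cre liver against control, 1.11 became 1.63 at a hashtag minimum of 50 UMIs, 1.27 with fewer than 6000 genes, 1.26 with equal weight, 1.80 in the shared cluster and 1.43 in cells under 15000 UMIs. Its 2 genes past the fold became 4 and 1 at hashtag minimums of 50 and 10 UMIs, 4 in cells under 15000 UMIs and 0 at a fold of 2. For iSuRe-HadCre liver against control, 1.05 became 1.45 at a hashtag minimum of 50 UMIs, 1.22 with fewer than 6000 genes, 1.22 with equal weight, 1.31 in the shared cluster and 1.37 in cells under 15000 UMIs. Its 3 genes became 6 at a hashtag minimum of 50 UMIs, 1 with the WPRE criterion, 1 at a mitochondrial share under 10%, 0 in the shared cluster and 1 at a fold of 2. For iSuRe-HadCre against iSuRe-Cre liver, 0.940 became 1.09 at a hashtag minimum of 10 UMIs, 0.774 without the Cdh5 criterion and 0.728 in the shared cluster.

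Among the 25 single-gene ratios whose interval excluded 1, 6 crossed 1, in 8 cases. Bax in iSuRe-HadCre heart went from 0.894 to 1.07 with equal weight, 1.25 in the shared cluster and 1.13 in cells under 15000 UMIs, and Gdf15 there from 1.45 to 0.618 in the shared cluster. In the shared liver cluster the Mdm2 ratios to control went to 0.970 (0.377 to 3.18) for iSuRe-Cre and 0.676 (0.105 to 3.48) for iSuRe-HadCre. Phlda3 in iSuRe-HadCre against iSuRe-Cre liver went to 0.474 (0.0946 to 1.47) there. Eda2r in iSuRe-HadCre against iSuRe-Cre heart went from 0.709 to 1.03 in cells under 15000 UMIs. Of the 35 ratios whose interval included 1, 23 crossed it under at least 1 alternative, among them Trp53inp1 in iSuRe-Cre heart (0.811 to 1.09) and Zmat3 in iSuRe-HadCre heart (1.31 to 0.604), both in the shared cluster, Phlda3 in iSuRe-HadCre heart (1.05 to 0.865 at a hashtag minimum of 50 UMIs), and Phlda3 and Eda2r in iSuRe-Cre liver (0.814 to 1.78 in the shared cluster, and 0.992 to 11.3 at a hashtag minimum of 50 UMIs, with 1 control UMI). The iSuRe-Cre liver ratio of cells with to cells without Cre went from 1.11 to 0.983 in shallower cells.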

Other observations

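The 5586 ECs that carried no hashtag at the minimum belong to no group. Their summed level of the 10 genes was 559 CPM (551 to 567). Control liver had 548 CPM, iSuRe-HadCre liver 574, control heart 592, iSuRe-Cre liver 610 and iSuRe-HadCre heart 624, against 1036 in iSuRe-Cre heart. The sum therefore cannot mark the cells without a hashtag as like control. Mdm2 was at 49.7 CPM, Bax at 282 CPM, Eda2r at 14.3 CPM and Gdf15 at 19.9 CPM in these cells.

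The sum also differed between vessel types of the liver within a single group. In iSuRe-Cre liver the sinusoidal-like cluster of 373 cells was at 766 CPM, and a large-vessel-like cluster led by Adgrg6 and Gja5 was at 453 CPM in 61 cells. Over all groups, Gdf15 was at 0.283 CPM in the sinusoidal-like cluster and at 66.6 CPM in cluster 1.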
